A study of Mus musculus with 6 samples.

Results

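Smo, Ptch1, Hhip, Gas1, Boc, Cdon, Disp1 and Lrp2 encode the proteins by which a cell releases, binds and reads Hedgehog ligands. They were followed in OP9 cells. This stromal line comes from mice that lack functional Csf1 and is used to support lymphoid progenitors in culture. The members were all probe sets of an Affymetrix Mouse Exon 1.0 ST array whose single gene symbol was one of these 8 names. That gave 263 of the 318760 probe sets with 1 symbol and 8 of 22103 named genes. A probe set is a small group of oligonucleotides that reads a stretch of an exon. The tables used here do not place probe sets on exons, so the account is by probe set number and not by position.

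The study compared a pair of stable OP9 lines. Both carried a pLKO.1-Puro lentiviral hairpin, scrambled in the control line (control shRNA) and directed at Smoothened in the other (Smo shRNA). Total RNA of each line was hybridised in triplicate, 6 arrays in all, from cells kept below confluence. The labels do not describe separate transductions or clones, so p-values measure only how far RNA samples of the same line differ, which may be technical, and the hairpin cannot be told apart from any other difference between the lines. In such bulk RNA, fewer cells of a type and less RNA per cell cannot be told apart either.

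All 8 stromal markers examined (among them Col1a1, Pdgfrb and Cxcl12) lay above the median of all probe sets on both lines, a log2 value of 6.56, with the surface marker Thy1 lowest at 7.29 in control cells. Ptprc, the pan-leukocyte antigen, was at 4.87 and 4.84. Of the 5 haematopoietic, 4 endothelial and 4 epithelial markers with a value, 2, 1 and 4 lay above that median, none over 7.83. Every array had a median between 6.56 and 6.59.

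In Hedgehog signalling, Disp1 releases the lipid-modified ligand from the producing cell. On the receiving cell the ligand binds Ptch1, which otherwise holds Smo inactive, and the co-receptors Gas1, Boc and Cdon assist that binding. Hhip binds the ligand and keeps it from Ptch1, and Lrp2 (megalin) is a large endocytic receptor that takes up Hedgehog ligands in some epithelia. Ptch1 and Hhip are also target genes that the pathway raises through Gli transcription factors, whereas Gas1, Boc and Cdon are lowered by the pathway in several embryonic tissues.

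The stretches before the transcription starts of Ptch1, Hhip and Gas1 are shown because these 3 genes are known pathway targets and moved in different directions. Each holds the 250 bases upstream of a RefSeq start (GRCm38.p6), 5′ to 3′ on the strand of the gene, with CG dinucleotides in capitals. The Ptch1 stretch is chr13:63565736-63565985 on the minus strand, the Hhip stretch chr8:80058009-80058258 on the minus strand and the Gas1 stretch chr13:60177536-60177785 on the minus strand.
Ptch1: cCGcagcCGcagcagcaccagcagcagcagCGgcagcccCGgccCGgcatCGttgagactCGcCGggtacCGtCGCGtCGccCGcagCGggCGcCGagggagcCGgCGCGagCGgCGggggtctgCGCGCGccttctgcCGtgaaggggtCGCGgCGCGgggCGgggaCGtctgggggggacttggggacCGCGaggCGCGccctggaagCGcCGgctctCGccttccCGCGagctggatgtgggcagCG
Hhip: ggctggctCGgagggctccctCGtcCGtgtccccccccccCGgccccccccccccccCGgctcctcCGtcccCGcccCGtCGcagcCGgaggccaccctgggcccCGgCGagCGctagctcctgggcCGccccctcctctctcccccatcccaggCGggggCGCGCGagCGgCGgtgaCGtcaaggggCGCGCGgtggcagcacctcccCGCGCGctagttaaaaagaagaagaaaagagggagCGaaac
Gas1: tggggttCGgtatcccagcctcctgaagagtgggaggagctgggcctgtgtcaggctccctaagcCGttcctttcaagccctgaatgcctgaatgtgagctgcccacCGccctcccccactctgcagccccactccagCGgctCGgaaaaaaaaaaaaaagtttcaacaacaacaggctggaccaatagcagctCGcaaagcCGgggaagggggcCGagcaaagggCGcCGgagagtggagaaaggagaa
The Ptch1 stretch holds 41 CG dinucleotides and that of Hhip 28, beside 10 for Gas1 and a median of 6 over all such stretches. The letters GACCACCCA, the consensus bound by Gli factors, were searched on both strands of the windows from 250 bases before to 50 after the start. They occurred in 0 of the 8 windows listed for 7 of the genes and in 83 of 32851 windows of all genes (0.253%). No window was listed for Boc. No match says only that these letters are not in this window.

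Across the 8 genes, 5 were lower and 1 was higher in Smo shRNA cells, and 2 did not pass the threshold, an adjusted p of 0.05. Over the 16871 genes tested, 38.6% were called in either direction, 17.4% lower and 21.3% higher. The median difference of the 8 genes was -0.23 on the log2 scale, beside 0.01 over all genes tested. Called differences of this set spanned a wide range, from 1.07-fold for Cdon to 2.08-fold for Hhip. Differences are Smo shRNA minus control shRNA in log2 units throughout, SE is the moderated standard error and adjusted p-values come from limma with Benjamini-Hochberg adjustment over all features tested.

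**Figure D1:**
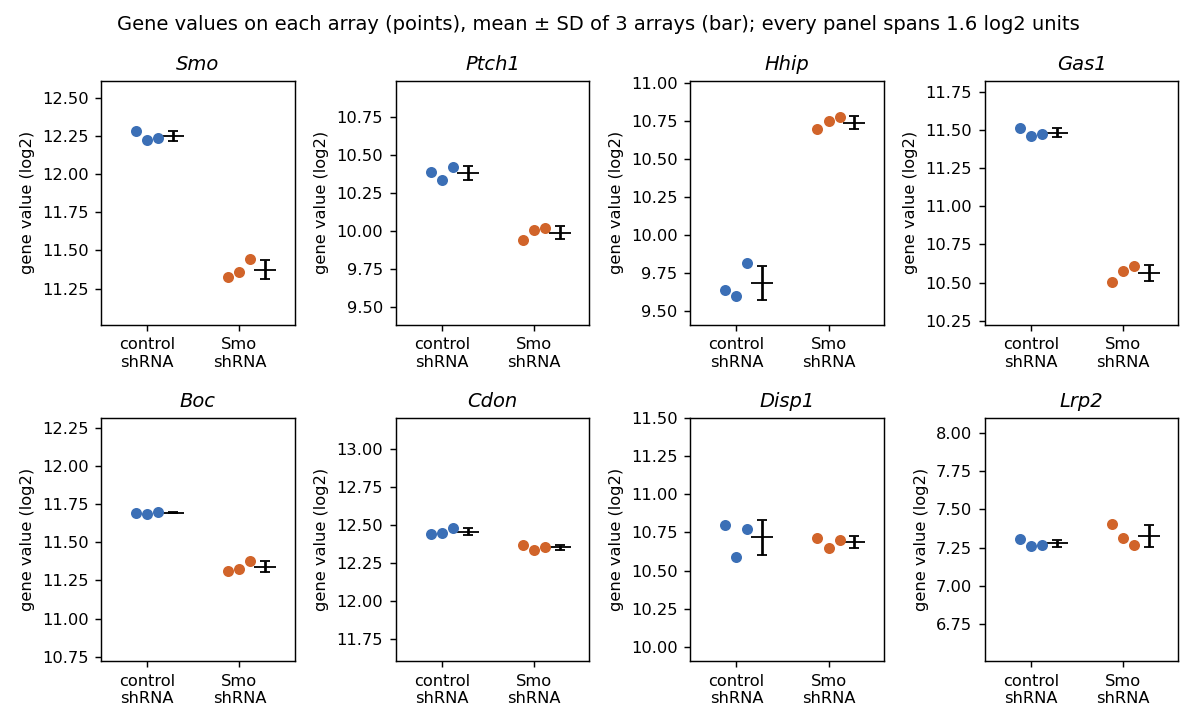
Gene values (log2) of the 8 Hedgehog genes on each array, with blue points for the 3 control shRNA arrays, orange points for the 3 Smo shRNA arrays, and bars for the mean ± SD. The lines do not overlap for Smo, Ptch1, Hhip, Gas1, Boc and Cdon and overlap for Disp1 and Lrp2. Over all genes tested, 47.8% had no overlap, in either direction. Each panel spans the same range of log2 units.

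Smo is the transmembrane protein that carries the signal into the cell and the gene the hairpin targets. Its gene value was 12.29, 12.22 and 12.24 on the control arrays and 11.32, 11.36 and 11.44 on the Smo shRNA arrays. Every Smo shRNA array was below every control array, and the gap was many times the spread within a line. The difference was -0.88 (SE 0.04, adjusted p = 1.13e-09), or 1.83-fold lower. A difference as large downward was found in 1.62% of all genes.

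The 26 Smo probe sets all passed the filter on dim values, and all 26 had a negative difference. Of these, 24 were called lower, beside 12.4% of the 245574 probe sets tested, and the same number had no overlap between 3 and 3 arrays (17.4% of all probe sets). The size varied from -1.49 to -0.07 with a median of -0.87. The SD of the differences among Smo probe sets was 0.34, against a median SD of 0.09 between arrays of a line.

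Several Smo probe sets stood away from the rest. The brightest, 4427804, read 14.05, 14.04 and 14.06 in control cells and 13.69, 13.67 and 13.74 on the Smo shRNA arrays, a difference of -0.35 (SE 0.03). The next brightest, 4992435, read 13.57, 13.53 and 13.57 against 12.94, 12.98 and 13.15, a difference of -0.54 (SE 0.05). Both were lower in every Smo shRNA array, but by less than their gene.

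To test this, the gene value of the same array was subtracted from each probe set and the remainder, the deviation, was compared between the lines. The deviation was 0.52 for 4427804 (adjusted p = 0.00593) and 0.34 for 4992435 (adjusted p = 0.0245). Deviations were called for 1.17% of the 240543 probe sets of tested genes. The call of 4427804 held without any single array, whereas that of 4992435 was lost in all 6 fits without 1 array and with diffSplice.

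Over the 1433 genes that changed by at least 0.5 in either direction, the response also varied with brightness. The difference of a probe set was a median of 1.06 times that of its gene at levels from 10 to 11, and 0.77 times (quartiles 0.656 and 0.885) for the 322 probe sets at 13 or more. The Smo ratios of 0.401 and 0.616 lay below that lower quartile. The part of brightness in their smaller differences was not tested.

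Probe set 4447859, in the middle of the level range at 11.12, also fell less than the gene. It read 11.39, 11.41 and 11.25 in control cells and 10.93, 10.95 and 10.80 on the Smo shRNA arrays, a difference of -0.46 (SE 0.08). Its deviation of 0.42 missed the threshold (adjusted p = 0.124) and, among the alternatives, passed only with diffSplice (adjusted p = 0.00713). Its ratio to the gene, 0.524, lay below the lower quartile of 0.904 at levels from 11 to 12.

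A further 3 probe sets fell more than the gene. Probe set 5067823 read 11.31, 11.07 and 11.23 in control cells and 9.58, 9.84 and 9.72 on the Smo shRNA arrays, a difference of -1.49 (SE 0.10). Probe sets 5248801 and 5534431 differed by -1.46 (SE 0.09) and -1.39 (SE 0.10). Their deviations of -0.62, -0.58 and -0.51 missed the threshold (adjusted p = 0.0534, 0.0664 and 0.0961). All 3 passed with the mean of probe sets as the gene value and with diffSplice, but none in a fit without 1 array. Their ratios to the gene, 1.58 to 1.71, lay above the upper quartile of 1.21 at that level.

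The dimmest Smo probe sets did not pass. Probe set 4984703 read 7.02, 7.02 and 7.12 in control cells and 6.78, 7.30 and 6.88 on the Smo shRNA arrays. Probe set 5410533 read 6.71, 7.63 and 7.30 against 6.94, 6.99 and 7.19. The lines overlapped in both (adjusted p = 0.862 and 0.646). Their deviations, 0.81 and 0.70, were the largest of Smo and missed the threshold (adjusted p = 0.101 and 0.275). Among the alternatives both passed only with diffSplice (adjusted p = 1.67e-09 and 2.1e-07). With only probe sets between 8 and 13 kept, a filter added after these values were seen, the Smo difference was -0.91 (SE 0.04).

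**Figure D2:**
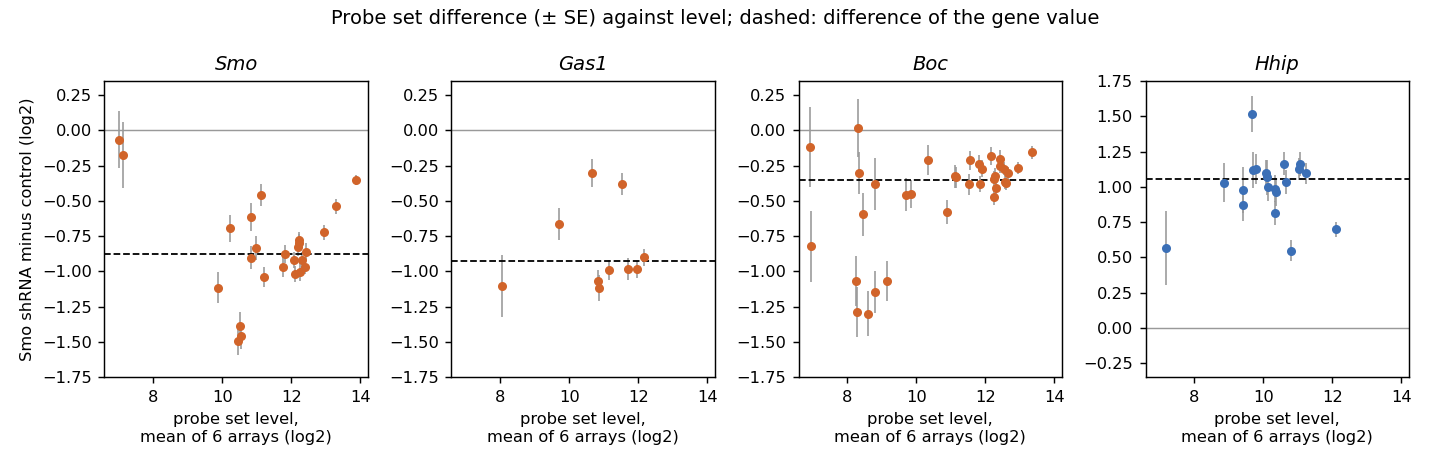
Difference of each probe set (Smo shRNA minus control shRNA, log2, ± SE) against its level (mean of 6 arrays, log2) for Smo, Gas1, Boc and Hhip, with a dashed line at the difference of the gene value and a separate vertical range for Hhip. The smallest Smo differences are those of the 2 dimmest and the brightest probe sets, followed by that of 4447859 at a level of 11.12, and 5 Boc probe sets at levels from 8.26 to 9.15 lie below -1.

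**Figure D3:**
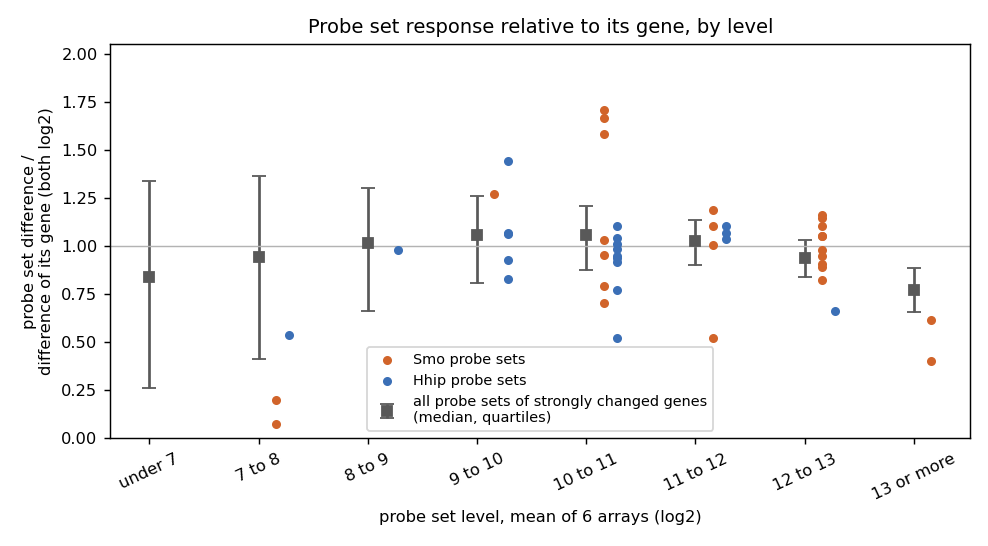
Ratio of a probe set's difference to that of its gene (both log2) by level, with squares and bars for the median and quartiles over all probe sets of the 1433 genes that changed by at least 0.5, orange points for Smo and blue points for Hhip. The overall median falls from 1.06 at levels from 10 to 11 to 0.77 at 13 or more, and the 2 Smo points in the last bin lie at 0.401 and 0.616.

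Ptch1, the receptor of the ligand and a target gene, was lower in Smo shRNA cells. Its gene value was 10.39, 10.33 and 10.42 in control cells and 9.94, 10.01 and 10.02 on the Smo shRNA arrays. The lines did not overlap. The difference was -0.39 (SE 0.05, adjusted p = 2.63e-05), 1.31-fold, and 6.43% of all genes fell by as much or more.

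Of 30 Ptch1 probe sets, 28 passed the filter, and all 28 had a negative difference. In 21 the probe set was called lower (12.4% of all probe sets) and in 20 the arrays did not overlap (17.4% of all). The quartiles of the differences were -0.48 and -0.30, and no deviation from the gene was called. The largest difference, -0.63 (SE 0.12), was that of 4769716, and the smallest, -0.0015 (SE 0.19), that of 5379674.

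Of the 7 Ptch1 probe sets that did not pass, 6 were at levels from 7.75 to 9.76, below the median level of all 30 (10.1), a range in which 5241256, 4767872 and 5057091 were called. The seventh, 4560337, read 10.64, 10.77 and 10.57 in control cells and 10.60, 10.47 and 10.56 on the Smo shRNA arrays, and these arrays overlapped. The 2 probe sets under the filter had differences of -0.68 and 0.09.

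Hhip, the secreted and membrane-bound ligand trap, was the member that rose. Its gene value was 9.64, 9.60 and 9.81 in control cells and 10.69, 10.75 and 10.77 on the Smo shRNA arrays. Every Smo shRNA array was well above every control array. The difference was 1.05 (SE 0.06, adjusted p = 1.22e-08), 2.08-fold, and 0.338% of all genes rose by as much or more.

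All 20 Hhip probe sets were higher and 19 were called, beside 17.5% of all probe sets. The same number had no overlap between the lines (23.6% of all probe sets). The quartiles of the differences were 0.94 and 1.12, around a median of 1.03. Probe set 5249800 rose most, from 8.87, 8.72 and 9.18 to 10.31, 10.42 and 10.59, a difference of 1.52 (SE 0.13). Its deviation of 0.46 missed the threshold (adjusted p = 0.0841). It passed with the mean of probe sets as the gene value (adjusted p = 0.0398) and with diffSplice (adjusted p = 0.00662), but in no fit without 1 array.

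Probe set 5156834 rose least among those called. It read 10.53, 10.56 and 10.50 in control cells and 11.05, 11.06 and 11.12 on the Smo shRNA arrays, a difference of 0.55 (SE 0.07). Its deviation of -0.51 was called (adjusted p = 0.0342), a call kept only without control shRNA replicate 3 among the 6 fits without 1 array. Its level of 10.80 was not among the brightest, and its ratio to the gene of 0.520 lay below the lower quartile of 0.876 at levels from 10 to 11.

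The dimmest Hhip probe set, 5555377, did not pass (0.57, SE 0.26, adjusted p = 0.123). The brightest, 4727801, rose from 11.70, 11.80 and 11.73 to 12.42, 12.45 and 12.45, a difference of 0.70 (SE 0.05). Its arrays did not overlap. Its deviation of -0.36 missed the threshold (adjusted p = 0.0827). Among the alternatives it passed only with a stricter filter on dim values (adjusted p = 0.0383) and with probe sets from 8 to 13 (adjusted p = 0.0411).

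Hhip and Ptch1, both inhibitory and both target genes, were set against each other within each array. The Hhip value minus the Ptch1 value, whose absolute size has no meaning between genes, went from -0.70 ± 0.08 (SD, n = 3) in control cells to 0.75 ± 0.01 (SD, n = 3) in Smo shRNA cells. The shift of 1.45 was far larger than either SD. An exact two-sided permutation test over the 20 splits of the arrays gave p = 0.1, the smallest that 3 against 3 arrays can give, so the design cannot reach the threshold by this test.

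**Figure D4:**
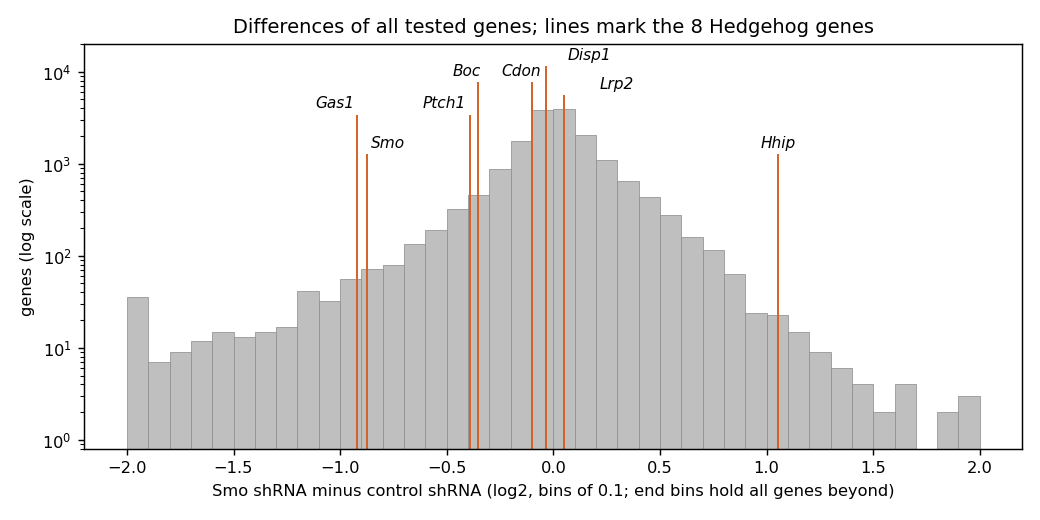
Number of genes (log scale) by difference in gene value (Smo shRNA minus control shRNA, log2, bins of 0.1) over the 16871 genes tested, with orange lines at the 8 Hedgehog genes. Smo and Gas1 lie in the lower tail, Hhip in the upper tail, and Cdon, Disp1 and Lrp2 near 0.

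Gas1, a co-receptor anchored to the membrane by a lipid and encoded by an intronless gene, fell by about as much as Smo. Its gene value was 11.52, 11.46 and 11.48 in control cells and 10.50, 10.57 and 10.61 on the Smo shRNA arrays. Again the lines did not overlap. The difference was -0.92 (SE 0.04, adjusted p = 2.26e-09), 1.90-fold, and 1.40% of all genes fell by as much or more.

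All 10 Gas1 probe sets were called lower (12.4% of all probe sets), and in 9 the arrays did not overlap (17.4% of all). The differences did not form a single band: 7 lay between -1.12 and -0.90, and 3 were smaller. Probe set 5402079 read 10.82, 10.92 and 10.65 in control cells and 10.65, 10.51 and 10.33 on the Smo shRNA arrays, a difference of -0.30 (SE 0.10, adjusted p = 0.0289). It was the one whose arrays were not separated, control replicate 3 and Smo shRNA replicate 1 both reading 10.65.

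Probe set 5159738 read 11.79, 11.65 and 11.71 against 11.37, 11.47 and 11.16, a difference of -0.38 (SE 0.08). The third, 4397963, differed by -0.67 (SE 0.11). The deviations of the first pair, 0.62 and 0.54, missed the threshold (adjusted p = 0.0835 and 0.0581), and both passed where the filter was stricter. All 3 were at levels from 9.71 to 11.52, between those of the probe sets that fell more.

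Boc and Cdon are paralogous immunoglobulin and fibronectin repeat proteins that act as co-receptors. Boc was 11.70, 11.69 and 11.70 in control cells and 11.32, 11.33 and 11.38 on the Smo shRNA arrays. The spread within a line was small and the lines were separate. The difference was -0.35 (SE 0.04, adjusted p = 2.98e-06), 1.28-fold, and 7.34% of all genes fell by as much or more.

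Of 35 Boc probe sets, all above the filter, 30 were called lower (12.4% of all probe sets) and 0 higher, and 29 had no overlap (17.4% of all). The median difference was -0.34, but the range ran from -1.30 to 0.02. A set of 5 probe sets fell at least 3 times as much as the gene value, a cut chosen with the values known. Next in size, 4508639 differed by -0.82 (SE 0.25, adjusted p = 0.0209). Probe set 4336837 read 9.07, 9.51 and 9.21 in control cells and 7.96, 7.74 and 8.19 on the Smo shRNA arrays, a difference of -1.30 (SE 0.16, adjusted p = 1.25e-05). Probe set 4414679 read 8.85, 8.98 and 8.90 against 7.41, 7.40 and 8.06, a difference of -1.29 (SE 0.18).

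Probe sets 4553538, 4557155 and 4930104 differed by -1.14 (SE 0.15), -1.07 (SE 0.18) and -1.07 (SE 0.14). In all 5, picked by the size of their differences, every Smo shRNA array was below every control array, as in 29 of the 35 Boc probe sets. Their deviations, from -0.95 to -0.71, missed the threshold (adjusted p from 0.0617 to 0.170). With the stricter filter 4336837, 4414679 and 4553538 passed it (adjusted p = 0.0266, 0.0361 and 0.0406), and with diffSplice all 5 did.

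These 5 were at levels from 8.26 to 9.15, on the dim side for Boc, whose probe sets had a median level of 11.5. Other Boc probe sets in that level range moved less. Probe set 4501637 was at 8.35, 8.42 and 8.14 in control cells and 7.74, 8.63 and 8.59 on the Smo shRNA arrays, with overlap. Probe set 5206597 differed by -0.30 (SE 0.15, adjusted p = 0.157). The brightest, 4349218, differed by -0.16 (SE 0.05, adjusted p = 0.0201).

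Cdon moved little. Its gene value was 12.44, 12.45 and 12.48 in control cells and 12.37, 12.33 and 12.35 on the Smo shRNA arrays. The arrays did not overlap, as in 47.8% of all genes in either direction. The difference was -0.10 (SE 0.03, adjusted p = 0.0100), 1.07-fold. The call was lost without control shRNA replicate 1 (-0.09, adjusted p = 0.0515), without control shRNA replicate 3 (-0.08, adjusted p = 0.0886), without Smo shRNA replicate 2 (-0.08, adjusted p = 0.0563) and when no variance trend was fitted (adjusted p = 0.098).

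Of 34 Cdon probe sets, all above the filter, 30 had a negative difference, 9 were called lower (12.4% of all probe sets) and 0 higher. The quartiles of the differences were -0.18 and -0.04. The largest was that of the dimmest, 5136239, at -0.59 (SE 0.16, adjusted p = 0.0109). Its deviation of -0.48 was not called (adjusted p = 0.218) and, among the alternatives, passed only with diffSplice (adjusted p = 3.98e-08).

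Boc minus Cdon, taken within each array, went from -0.76 ± 0.02 (SD, n = 3) to -1.01 ± 0.04 (SD, n = 3), a shift of -0.25. This is larger than the spread between arrays of a line. The exact two-sided permutation test gave p = 0.1, again the smallest possible, and 0.1 after adjustment over both such tests.

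Disp1, a transporter-like protein with a sterol-sensing domain that frees ligand from the producing cell, did not pass. Its gene value was 10.80, 10.59 and 10.77 in control cells and 10.71, 10.65 and 10.70 on the Smo shRNA arrays. The lines overlapped. The difference was -0.03 (SE 0.06, adjusted p = 0.73), with a 95% interval from -0.16 to 0.09. Without control shRNA replicate 2, the lowest control array, it was -0.12 and was called (adjusted p = 0.022).

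Of 10 Disp1 probe sets, 9 passed the filter, and 1 of these was called, a smaller share than the 30.0% of all probe sets called in either direction. Probe set 4652853 read 11.79, 11.64 and 11.71 in control cells and 11.50, 11.52 and 11.58 on the Smo shRNA arrays, a difference of -0.18 (SE 0.06, adjusted p = 0.0445). Probe set 5315532 was without overlap in the other direction, at 11.29, 11.29 and 11.36 against 11.49, 11.45 and 11.45, and did not pass (0.15, SE 0.06, adjusted p = 0.094). The probe set under the filter, at a level of 4.02, differed by -0.77.

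Lrp2 was dim on all arrays. Of its 98 probe sets 56 fell under the filter, and over all 98 its value was 6.20 in control cells and 6.21 on the Smo shRNA arrays, below the median of all probe sets on the array. The value over the 42 kept probe sets was 7.30, 7.26 and 7.27 in control cells and 7.40, 7.31 and 7.26 on the Smo shRNA arrays. The lines overlapped. The difference was 0.05 (SE 0.08, adjusted p = 0.701), with a 95% interval from -0.12 to 0.21.

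The 42 Lrp2 probe sets were split evenly in sign, with 22 lower and 20 higher. The 1 that was called, 5413037, read 6.89, 6.93 and 6.43 in control cells and 7.39, 7.29 and 7.30 on the Smo shRNA arrays (0.58, SE 0.20, adjusted p = 0.0424). Its share of the 42 is below the 30.0% of all probe sets called in either direction. The brightest, 5058204, read 9.32, 9.48 and 9.05 against 9.19, 9.21 and 9.31, with overlap.

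**Figure D5:**
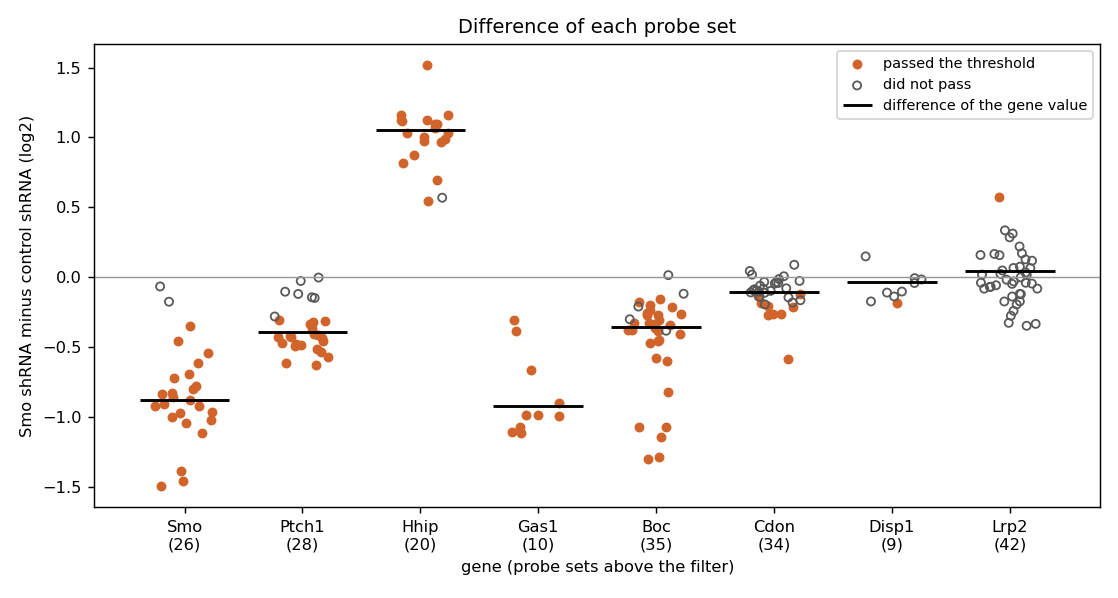
Difference of every probe set above the filter (Smo shRNA minus control shRNA, log2) for the 8 genes, with the number of probe sets under each name, filled points for those that passed the threshold, open points for those that did not, and a line at the difference of the gene value. All Smo, Ptch1 and Gas1 points lie below 0, all Hhip points lie above 0, and 5 Boc points lie below -1, with the next at -0.82.

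In all, 204 of the 263 probe sets passed the filter, and 95 were called lower and 20 higher, beside 12.4% and 17.5% of all probe sets. The higher share was thus below that of all probe sets, and 19 of the 20 were in Hhip. Of the called deviations, 2 were in Smo and 1 in Hhip. These were 3 of the 204 probe sets, a share close to the 1.17% called over all probe sets of tested genes. By this test 0 were called in the other 6 genes. On simulated data the test recovered only 6% of 1.5-fold and 36% of 2-fold deviations. A count of 0 therefore does not show that all probe sets of a gene moved alike. With diffSplice, probe sets of Boc, Cdon, Gas1 and Lrp2 were called too. The count of 3 by the deviation test fell to 1, Smo probe set 4427804, without control shRNA replicate 1 or 2 or Smo shRNA replicate 1 or 2. Without Smo shRNA replicate 3, 1 Boc (4414679) and 1 Gas1 probe set (5159738) were called beside it.

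Other genes of the pathway were taken from a list of components. Of the 44 listed, 41 were tested, 9 fell, 5 rose and 27 did not pass, shares of 22.0% and 12.2% beside 17.4% and 21.3% of all genes. Their median difference was -0.05, beside 0.01 over all genes tested. Without control shRNA replicate 1, 3 rose.

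The ligand genes did not pass. Shh was at 7.86 ± 0.17 (SD, n = 3) in control cells and 7.79 ± 0.09 on the Smo shRNA arrays, with a difference of -0.08 (adjusted p = 0.585). Ihh differed by 0.03 (adjusted p = 0.816) and Dhh by 0.01 (adjusted p = 0.964).

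Cell surface glypicans, heparan sulphate proteoglycans some of which bind Hedgehog ligands, held the largest change in the list. Gpc4 was 11.15, 10.97 and 11.12 in control cells and 10.26, 10.34 and 10.36 on the Smo shRNA arrays, a difference of -0.76 (SE 0.05, adjusted p = 1.06e-07). Gpc6 fell by 0.36 (adjusted p = 1.11e-05), while Gpc1 rose by 0.27 (adjusted p = 1.52e-05). Gpc3 and Gpc5 did not pass.

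Disp2, a relative of Disp1, fell from 9.33 ± 0.05 to 8.71 ± 0.07 (SD, n = 3), a difference of -0.62 (SE 0.06, adjusted p = 3.1e-06). Disp3 did not pass (0.01, adjusted p = 0.934). Among kinases, Grk2, which phosphorylates active Smo, rose by 0.28 (adjusted p = 6.22e-05) and Prkaca, the catalytic subunit of protein kinase A, by 0.19 (adjusted p = 0.00137). Gsk3b, a kinase that marks Gli proteins for processing, fell by 0.16 (adjusted p = 0.000285), and Stk36, the vertebrate relative of fly Fused, by 0.43 (adjusted p = 0.000331). Of the Gli factors, Gli1 was higher, a difference of 0.25 (SE 0.07, adjusted p = 0.0118), the opposite direction to Ptch1. Gli3 was lower (-0.19, SE 0.05, adjusted p = 0.00539) and Gli2 did not pass (0.01, adjusted p = 0.968).

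The genes whose values were most like those of 3 members over the 6 arrays were found by the highest positive Pearson correlation. Gene models, with names starting with Gm and digits or ending in Rik, were passed over here and in the counts below. For Smo they were Dlx5, Kitl and Zcrb1 (r of at least 0.9999), with differences of -0.82, -0.69 and -0.75. For Gas1 they were Nat8f5, Srpx2 and Kitl, and for Hhip Cpd, Fanca and Kntc1. With 2 lines such values mostly restate the difference between them: 413, 400 and 502 genes correlated with Smo, Gas1 and Hhip at more than 0.99.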

How the data were processed

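The deposited series matrix holds log2 probe set values made by the authors from 6 arrays. The log2 scale was read from the values, which run from 0 to 15.1, while the methods of summary, background correction and normalization and the annotation build are not stated in the sources used here. Of 1256831 probe sets, 20744 (1.65%) read 0 on every array and were left out. Symbols came from the platform annotation and were updated through the RefSeq table of GRCm38.p6, where 18006 of 22296 were current and 4227 were replaced through a synonym of 1 gene. Probe sets with several symbols (6684) or none (931387) were not used.

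A filter removed probe sets whose mean value lay under the median of all (6.56) and retained 245574. A gene needed 3 or more of these, which Tukey median polish turned into 1 value for each array, and 16871 genes had one. Gene values, probe set values and deviations (probe set minus gene value) were each compared with limma 3.58.1 in R 4.3.3 (lmFit, eBayes with a variance trend, two-sided, Benjamini-Hochberg, threshold 0.05). Pairs of genes were compared by an exact permutation test. The code was tested on simulated data. Folds from hybridization understate the changes of dim genes, and the number of arrays limits the precision. Smaller differences were also seen at the bright end, where the median ratio to the gene was 0.77 at levels of 13 or more. At most 0.0237% of values were identical between 2 arrays.

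The 8 genes and the lists were chosen with earlier results of these data known. The text names all 8, the ligands, up to 8 called genes of the pathway list with the smallest adjusted p, 3 genes most like each of 3 members, and per member the probe sets with the largest and smallest difference, the dimmest, the brightest and those with a called deviation. Further probe sets, Disp3, Gpc3, Gpc5, Gli1, Gli2 and Gli3 were named after their values were seen. Alternatives covered the filter, gene summary, minimum of 5 probe sets, variance trend, normalization, replicate block, diffSplice and leaving out each array.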

Additional observations from a re-analysis of the deposited data

How the results depend on the processing

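The differences of Smo, Ptch1, Hhip, Gas1 and Boc kept their direction and their side of the threshold in all 15 alternatives. Their ranges were -0.91 to -0.84, -0.41 to -0.35, 1.00 to 1.08, -0.95 to -0.85 and -0.45 to -0.30. Cdon missed the threshold with no variance trend (-0.10) and ranged from -0.098 to -0.076 without 1 array. Disp1 ranged from -0.12 to 0.0063 without 1 array. Lrp2, which was not called in any alternative, changed sign with the mean of probe sets (-0.00034), with the stricter filter at 8.22 (-0.014) and with probe sets from 8 to 13, a filter added after seeing the data whose upper bound was raised once its results were known (-0.0084), and ranged from -0.0053 to 0.027 without 1 array. The count of higher pathway genes was 3 to 4 without 1 array.

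Called deviations depended most on the processing. The 3 among the 8 genes became 10 with the mean of probe sets, 1 with no filter, 12 with the stricter filter, 9 with probe sets from 8 to 13, 21 with diffSplice and 1 to 3 without 1 array. Over all genes 2821 became 5644 with the mean of probe sets, 1409 with no filter, 12249 with diffSplice and 686 to 1590 without 1 array. The cause was not tested, except that fits without 1 array rest on fewer samples.

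With the replicate number as a block, 1 deviation was called among the 8 genes and 1828 over all genes, no gene of the 8 changed its call, and the genes called rose from 6518 to 6924. A pairing by number was not established, since the labels name no shared batch and deviations of same-numbered arrays from their line's mean correlated at 0.08, 0.10 and 0.39 across genes. All 3 values were positive, and 4 of 6 arrays were closest to their own number.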
